A study of Mus musculus with 6 samples.

Results

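The 9 mouse genes described here are the SLAM family receptors of chromosome 1 that lie beside Kcnj9, the gene disrupted in this study. They were chosen by name from a table of 43346 genes: Slamf1, Slamf6, Slamf7, Slamf8, Slamf9, Cd48, Cd84, Cd244 and Ly9. The group was put together with earlier results of the same genotype comparison in view, so the genotype values below describe these libraries and support nothing further. Polyadenylated RNA was sequenced from epiphyseal chondrocytes of Girk3-/- mice (3 libraries) and of wild type mice (3 libraries), which the labels call biological replicates. All animals were 5 days old, and the labels give male sex and strain C57BL/6 for both genotypes. Girk3, encoded by Kcnj9, is a subunit of G protein-gated inwardly rectifying potassium channels. The allele is labelled only as a germline null, with no promoter, Cre or rescue described, and the strain in which it was made is not given in the sources used here. Cells were freed from cartilage by collagenase and no sorting is described, so a library can also hold RNA of blood and marrow cells.

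SLAM receptors are immunoglobulin-fold proteins of blood cells. Most bind a copy of themselves on a neighbouring cell, while Cd244 binds Cd48. The tails of Slamf1, Slamf6, Slamf7, Cd84, Cd244 and Ly9 carry tyrosine motifs that recruit the small adaptors SAP and EAT-2 and, through them, Src family kinases. Cd48 has no tail of its own and is held by a lipid anchor, and Slamf8 and Slamf9 have short tails without those motifs. The family is known from lymphocytes, macrophages, granulocytes, platelets and blood stem cells, not from cartilage. The cluster is also known to differ in sequence between inbred strains, with C57BL/6 and 129 mice carrying different haplotypes. Alleles were not read here.

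In these libraries Kcnj9 had 0 counts in all 6, so the targeted gene could not check the genotype labels. Total counts were 34279516 to 60392837 in Girk3-null libraries and 42252651 to 50361885 in wild type libraries. The sex label went against the transcripts in 5 libraries. The Y-linked gene Ddx3y had 8597 counts in Girk3-null replicate 1, 1 and 2 counts in Girk3-null replicates 2 and 3, and 0 in each wild type library. Counts of Xist, the RNA of the inactive X chromosome, were 19 for Girk3-null replicate 1 and lay between 67346 and 144825 for the remaining 5 libraries. Results are therefore also given without Girk3-null replicate 1. Chondrocyte markers were abundant in all 6 libraries: the 15 genes of that list summed to 82400 to 131000 CPM in Girk3-null libraries and 53600 to 89200 CPM in wild type libraries (counts scaled to library size with TMM factors). The 9 SLAM genes together summed to 8.14 to 15.4 CPM in Girk3-null libraries and 13.7 to 19.6 CPM in wild type libraries.

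Along the chromosome (mm10) the members form 2 blocks on either side of Kcnj9, which spans chromosome 1, 172320501 to 172329318. To its left lie 7 members within 394 kb, in the order Cd244, Ly9, Slamf7, Cd48, Slamf1, Cd84 and Slamf6, the nearest 367 kb and the farthest 713 kb from Kcnj9. To its right lie Slamf9, 146 kb away, and Slamf8, 252 kb away. Cd244 (171559193 to 171609746) and Ly9 (171588624 to 171607410) overlap over 18787 bases on opposite strands, but their GENCODE M21 exons share no base. Of the 9 members, Slamf7 alone shared exon bases with another annotated gene, 423 bases or 9.24% of its exons, with an antisense transcript that had at most 1 count in a library. Strand handling in the counting is not given in the sources used here, and the listed gene lengths equal the summed exon bases.

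All 9 genes were expressed at low levels. On the RPKM scale (the authors' counts per gene length and library depth), which allows genes to be compared, Cd84 was highest with a mean of 1.07 over the 6 libraries. Cd48 followed at 0.953, Slamf7 at 0.637, Ly9 at 0.511, Cd244 at 0.213, Slamf9 at 0.184, Slamf8 at 0.0742, Slamf6 at 0.0655 and Slamf1 at 0.0485. The median over 17554 tested genes was 3.95, and 73.3% of them lay at or above Cd84. Neighbours in this order were often not separated. Ly9 was above Cd244, and Slamf9 above Slamf8, in 6 of 6 libraries, but Slamf7 was above Ly9 and Cd244 above Slamf9 in only 3 of 6. The order of Slamf7 and Ly9 went with genotype: Slamf7 averaged 0.348 ± 0.0449 RPKM in Girk3-null libraries, below Ly9 at 0.412 ± 0.0434, and 0.927 ± 0.102 RPKM in wild type libraries, above Ly9 at 0.610 ± 0.139 (SD, n = 3 each).

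**Figure D1:**
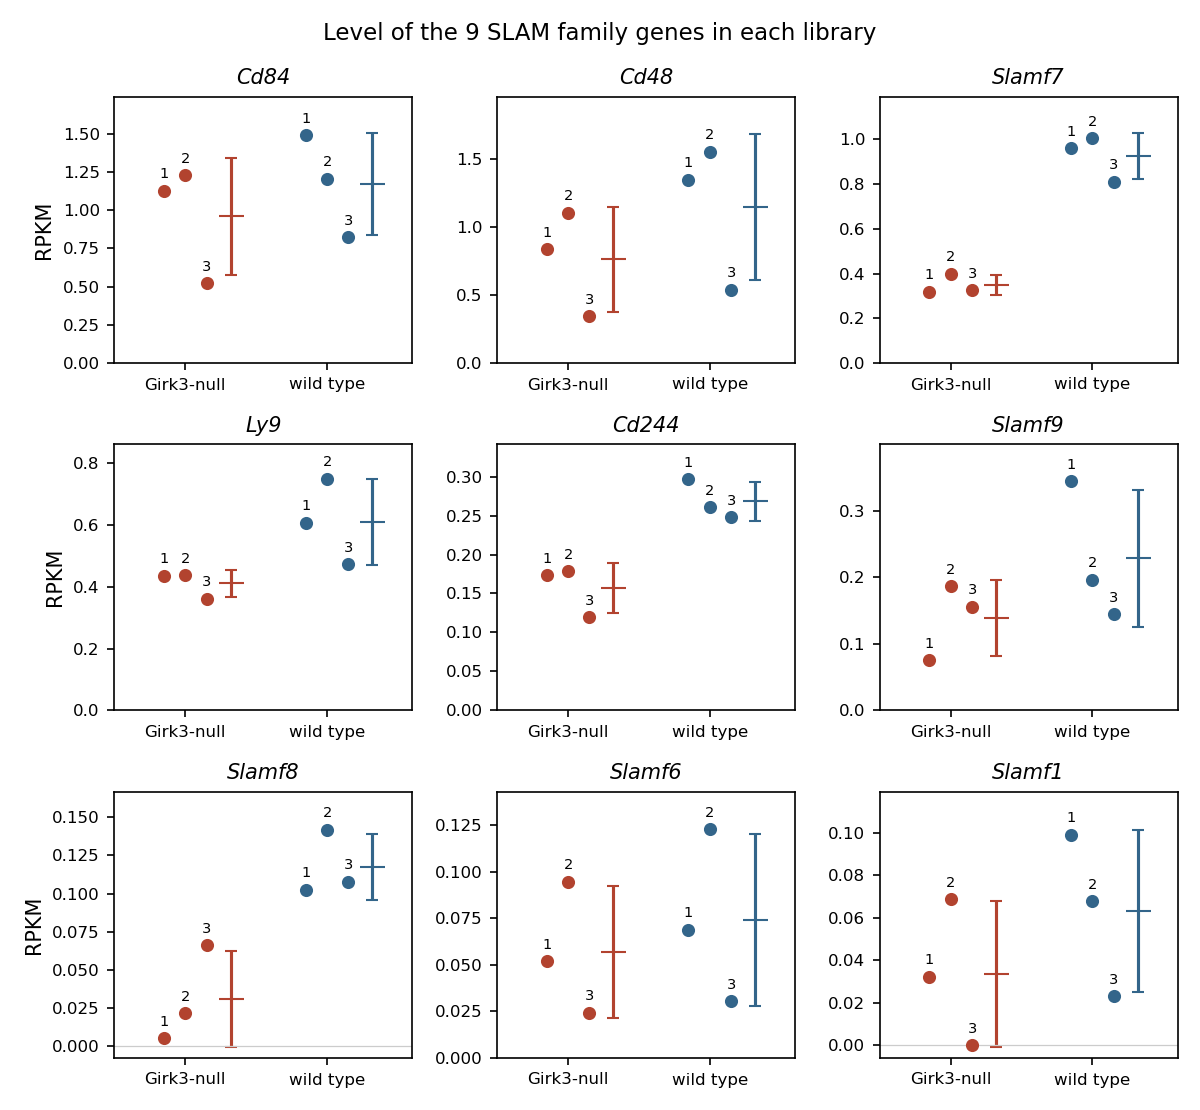
RPKM of each SLAM family gene in every library (points, numbered by replicate), with the mean and SD of each genotype (bars, n = 3), from the highest gene, Cd84, to the lowest, Slamf1; vertical scales differ between panels. Slamf7, Slamf8, Cd244 and Ly9 have Girk3-null libraries that all lie below the wild type libraries, while in Cd84, Cd48, Ly9, Cd244, Slamf6 and Slamf1 replicate 3 is lowest in both genotypes.

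Slamf7, an activating receptor of natural killer cells, plasma cells and macrophages (also called CRACC or CD319), showed the clearest separation of the genotypes. It had 88, 82 and 51 counts in Girk3-null replicates 1 to 3, and 195, 232 and 157 counts in wild type replicates 1 to 3. In CPM these were 1.48, 1.88 and 1.59 in Girk3-null libraries and 4.13, 4.27 and 3.83 in wild type libraries. The highest Girk3-null library was thus below the lowest wild type library by more than the spread within either genotype. The log2 fold change of Girk3-null over wild type was -1.30 (SE 0.21, a standard error worked back from the test statistic). In edgeR's quasi-likelihood test across all genes its adjusted p was 0.291 and it ranked 8 of 17554 by p, so it did not pass. DESeq2 gave it an adjusted p of 4.64e-05 with a log2 fold change of -1.31, and edgeR without the filter on low counts gave 0.0459 (4.64e-05 to 0.814 over 14 alternatives). Without Girk3-null replicate 1 it was -1.23 (SE 0.22), and leaving out any other library gave -1.41 to -1.27.

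The upstream sequences are shown for Slamf7, Slamf8 and Cd244, whose genotypes did not overlap, and for Cd84, the highest member, whose genotypes did. They are the 250 bases before the RefSeq start (GRCm38.p6), written 5′ to 3′ on the gene's own strand, at chr1:171649000-171649249 (Slamf7, minus strand), chr1:172590569-172590818 (Slamf8, minus strand), chr1:171558943-171559192 (Cd244, plus strand) and chr1:171839447-171839696 (Cd84, plus strand). The Slamf7 start used by RefSeq lies inside the interval of the count table, which runs on to 171653035. Capitals mark letters matching TGANTCA (the AP-1 site), CACGTG (the E-box) or the interferon response core (GAAA, then 2 bases of any kind, then GAAA) on either strand.
Slamf7: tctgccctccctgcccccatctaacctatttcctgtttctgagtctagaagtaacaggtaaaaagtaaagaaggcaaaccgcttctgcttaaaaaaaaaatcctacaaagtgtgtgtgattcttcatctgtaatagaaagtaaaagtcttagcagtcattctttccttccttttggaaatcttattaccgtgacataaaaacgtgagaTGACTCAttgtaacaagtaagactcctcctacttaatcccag
Slamf8: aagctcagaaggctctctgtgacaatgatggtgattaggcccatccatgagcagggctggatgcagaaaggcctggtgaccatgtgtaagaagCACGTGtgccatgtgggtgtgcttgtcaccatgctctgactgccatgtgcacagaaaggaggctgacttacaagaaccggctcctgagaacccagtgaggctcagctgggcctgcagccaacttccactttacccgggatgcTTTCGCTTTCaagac
Cd244: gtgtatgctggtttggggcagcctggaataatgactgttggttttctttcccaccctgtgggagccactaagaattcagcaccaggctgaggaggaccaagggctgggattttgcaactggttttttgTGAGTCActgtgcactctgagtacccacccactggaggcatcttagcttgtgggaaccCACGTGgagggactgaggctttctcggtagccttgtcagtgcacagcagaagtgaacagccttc
Cd84: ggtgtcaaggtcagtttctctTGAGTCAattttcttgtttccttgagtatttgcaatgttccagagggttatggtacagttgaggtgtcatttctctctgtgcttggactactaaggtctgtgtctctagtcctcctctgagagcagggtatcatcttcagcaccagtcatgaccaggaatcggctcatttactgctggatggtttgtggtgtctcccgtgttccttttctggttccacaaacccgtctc

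RefSeq promoters were matched for 8 members, all but Ly9. TGANTCA stood in 3 of the 8 (Slamf7, 42 bases before the start, Cd244 and Cd84), against 6.73% of 32536 mouse promoter windows of the same length. CACGTG stood in 3 of 8 (Slamf8, Slamf9 and Cd244), against 6.04%. The interferon response core stood in Slamf8, 15 bases before the start, and in 2.98% of all windows. Of the other motifs searched, GAGGAA, a PU.1 site, stood in Slamf9 only of the 8 (23.4% of windows), an ETS-IRF composite (GGAA, then 2 bases of any kind, then GAAA) in 0 of 8 (2.31%), and GGAA, the ETS core contained in both, in 7 of 8 (93.4%). The TGANTCA match is shared by Slamf7 and Cd244, whose genotypes did not overlap, and Cd84, whose genotypes did. These are letter matches in a short window and show no binding.

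Slamf8 and Slamf9 are the members without signalling motifs in their tails and are known from macrophages and dendritic cells. Slamf8 (also called BLAME) had 1, 3 and 7 counts in Girk3-null replicates 1 to 3, and 14, 22 and 14 counts in wild type replicates 1 to 3. In CPM it was 0.0169, 0.0688 and 0.218 in Girk3-null libraries and 0.296, 0.405 and 0.342 in wild type libraries. Each Girk3-null library was below each wild type library, and the range within Girk3-null libraries was wide. The 11 counts in Girk3-null libraries and 50 in wild type libraries gave a ratio of 0.232 (95% exact interval 0.109 to 0.452, counting error only). The edgeR log2 fold change was -1.95 (SE 0.71, adjusted p = 0.301). Slamf8 entered the test through the wild type libraries, since 0 of 3 Girk3-null libraries reached 10 counts. Without Girk3-null replicate 1 its log2 fold change was -1.33, and without Girk3-null replicate 3 it was -3.05. Slamf9 had 6, 11 and 7 counts in Girk3-null replicates 1 to 3, and 20, 13 and 8 counts in wild type replicates 1 to 3. Its genotypes overlapped, with a log2 fold change of -0.62 (SE 0.53). That value rested on the first library of each genotype: it was -0.27 without Girk3-null replicate 1 and -0.23 without wild type replicate 1.

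Cd244 (2B4) and Cd48 are the receptor and ligand pair of the family. Cd244 had 51, 39 and 20 counts in Girk3-null replicates 1 to 3, and 64, 64 and 51 counts in wild type replicates 1 to 3. It averaged 0.793 ± 0.148 CPM in Girk3-null libraries and 1.26 ± 0.0898 CPM in wild type libraries (SD, n = 3 each), and the genotypes did not overlap. Its log2 fold change was -0.66 (SE 0.29, adjusted p = 0.346 in edgeR), and -0.72 without Girk3-null replicate 1. Cd48, its ligand, had 60, 59 and 14 counts in Girk3-null replicates 1 to 3, and 71, 93 and 27 counts in wild type replicates 1 to 3. Replicate 3 of either genotype was far below the other libraries, and the genotypes overlapped. Cd48 averaged 0.934 ± 0.463 CPM in Girk3-null libraries and 1.29 ± 0.557 CPM in wild type libraries, and its log2 fold change was -0.46 (SE 0.48). Leaving out 1 Girk3-null library gave -0.51 (replicate 1), -0.80 (replicate 2) or -0.14 (replicate 3). Leaving out a wild type library gave -0.34, -0.20 or -0.76 for replicates 1, 2 and 3.

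Ly9 (CD229), a self-binding receptor of lymphocytes, had 87, 65 and 41 counts in Girk3-null replicates 1 to 3, and 89, 125 and 66 counts in wild type replicates 1 to 3. Scaled for depth these were 1.47, 1.49 and 1.28 CPM in Girk3-null libraries and 1.88, 2.30 and 1.61 CPM in wild type libraries. The groups did not overlap but came close, and the log2 fold change was -0.45 (SE 0.25), and -0.48 without Girk3-null replicate 1. Slamf1 (CD150), a marker of blood stem cells and of activated lymphocytes, had 12, 19 and 0 counts in Girk3-null replicates 1 to 3, and 27, 21 and 6 counts in wild type replicates 1 to 3. The 0 allows up to 3 counts, or 0.0875 CPM of the unscaled total of that library. Slamf6 (Ly108), a receptor of T, B and natural killer cells, had 34, 46 and 9 counts in Girk3-null replicates 1 to 3, and 33, 67 and 14 counts in wild type replicates 1 to 3. In both genes replicate 3 was lowest in either genotype and the groups overlapped. The log2 fold change of Slamf1 was -0.74 (SE 0.84) and that of Slamf6 was -0.25 (SE 0.57). Without Girk3-null replicate 1 these were -0.66 and -0.16. Both moved further with other libraries left out. For Slamf1, leaving out Girk3-null replicate 2 gave -1.63, Girk3-null replicate 3 gave -0.24 and wild type replicate 1 gave -0.30. For Slamf6, leaving out Girk3-null replicate 2 gave -0.79, Girk3-null replicate 3 gave 0.08, wild type replicate 2 gave 0.29 and wild type replicate 3 gave -0.58.

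Cd84, a self-binding receptor of macrophages, mast cells, platelets and lymphocytes, had the most counts of the members and the log2 fold change nearest to 0. It had 427, 346 and 112 counts in Girk3-null replicates 1 to 3, and 414, 381 and 218 counts in wild type replicates 1 to 3. That was 6.21 ± 2.38 CPM in Girk3-null libraries and 7.03 ± 1.72 CPM in wild type libraries (SD, n = 3 each), with overlapping groups. The log2 fold change was -0.17 (SE 0.31), and -0.29 without Girk3-null replicate 1. It was positive without Girk3-null replicate 3 (0.11) and without wild type replicate 1 (0.01), and lower without Girk3-null replicate 2 (-0.38) and without wild type replicate 3 (-0.33).

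**Figure D2:**
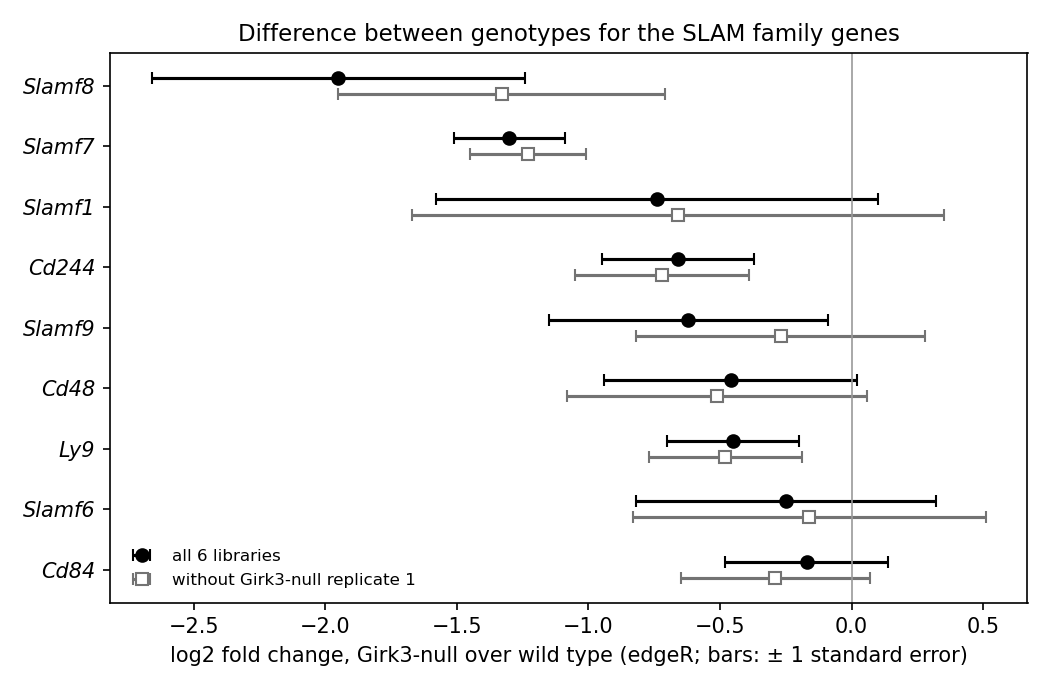
edgeR log2 fold change of Girk3-null over wild type for each SLAM family gene (points) with 1 standard error on either side (bars), from all 6 libraries (filled circles) and without Girk3-null replicate 1 (open squares). All 9 values lie below 0 in both fits, from -0.17 (Cd84) to -1.95 (Slamf8) with all libraries, and the bar of Slamf7 is the shortest.

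Over the 9 members, all of which passed the filter on low counts, the median log2 fold change was -0.62, beside 0.01 over all 17554 tested genes. All 9 values were below 0, as were 48.2% of tested genes. By edgeR 0 of 9 members passed an adjusted p of 0.05, as 0.0057% of tested genes did. At an unadjusted p under 0.05 there were 2 members, Slamf7 and Slamf8, both lower, where 7.02% of tested genes were lower. Slamf8, counted in all of these shares, had passed the filter through the wild type libraries, as 0 of 3 Girk3-null libraries reached 10 counts. In 4 of 9 members, Slamf7, Slamf8, Cd244 and Ly9, the groups did not overlap and Girk3-null was lower, as in 10.2% of tested genes, and 0 of 9 had groups apart with Girk3-null higher, as 9.86% of tested genes did. DESeq2 called 1 member, Slamf7, as lower, and of the genes to which it gave an adjusted p it called 0.997% as lower and 2.14% in either direction, and it gave none to Slamf1, Slamf8 and Slamf9. Since the comparison was known when the members were chosen, nothing is read from these shares. Without Girk3-null replicate 1 the median was -0.51, again with 9 of 9 below 0, and 1 member, Slamf7, had an unadjusted p under 0.05 and was lower, as were 4.77% of the genes tested.

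The title numbers of the libraries fall below 200 (Girk3-null replicate 1 and wild type replicates 1 and 2) or above it (Girk3-null replicates 2 and 3 and wild type replicate 3), and what they mark is not stated. Slamf7 was lower in Girk3-null within both ranges, with a difference in mean log2 CPM of -1.47 below 200 and -1.13 above. Slamf8 (-2.70 and -1.17), Cd244 (-0.53 and -0.70), Ly9 (-0.49 and -0.22) and Slamf1 (-1.06 and -0.40) also kept their sign. Cd48 (-0.64 and 0.22), Slamf6 (-0.66 and 0.63) and Slamf9 (-1.33 and 0.22) did not, and Cd84 was near 0 in both (-0.12 and -0.01). With 1 library on a side in each range, these differences have no error of their own.

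The mix of SLAM transcripts also varied between libraries. Slamf7 took 11.5%, 12.2% and 19.5% of all SLAM counts in Girk3-null replicates 1 to 3 (95% Wilson intervals 9.42% to 13.9%, 9.97% to 14.9% and 15.2% to 24.8%). It took 21.0%, 22.8% and 28% in wild type replicates 1 to 3 (18.5% to 23.8%, 20.3% to 25.5% and 24.4% to 31.8%). All Girk3-null shares were below all wild type shares, but the intervals of Girk3-null replicate 3 and of wild type replicates 1, 2 and 3 overlapped.

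Because SLAM genes belong to blood cells, their counts were set beside those of other leukocyte genes. In bulk RNA, fewer leukocytes and less RNA per leukocyte cannot be told apart. A list of 14 genes shared by most leukocytes, of which Tyrobp, Arhgdib and Fcer1g were highest in RPKM and Lcp1 in CPM, summed to 269, 334 and 199 CPM in Girk3-null replicates 1 to 3, and 344, 252 and 232 CPM in wild type replicates 1 to 3. Its levels overlapped between genotypes, with 7 genes lower and 7 higher and a median log2 fold change of -0.03. Per 1000 counts of that list the libraries had 48.1, 46.0 and 41.0 SLAM counts in Girk3-null replicates 1 to 3, against 57.0, 74.2 and 59.1 in wild type replicates 1 to 3. Slamf7 on that scale was 5.53, 5.63 and 8 in Girk3-null libraries and 12, 16.9 and 16.5 in wild type libraries, without overlap. Cd244 was 3.01 ± 0.287 in Girk3-null libraries and 4.66 ± 0.716 in wild type libraries, also without overlap, and the other 7 members overlapped. Slamf7 and Cd244 were apart in CPM too, as 10.2% of tested genes were with Girk3-null lower. The share of all genes apart on the leukocyte scale was not worked out. Cd84 was 22.7 ± 4.71 in Girk3-null libraries and 25.4 ± 2.42 in wild type libraries (SD, n = 3 each). Per 1000 counts of Ptprc, the common leukocyte antigen CD45, all 9 members overlapped. Slamf7 was then 66.8, 72.0 and 137 in Girk3-null libraries and 111, 240 and 223 in wild type libraries.

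**Figure D3:**
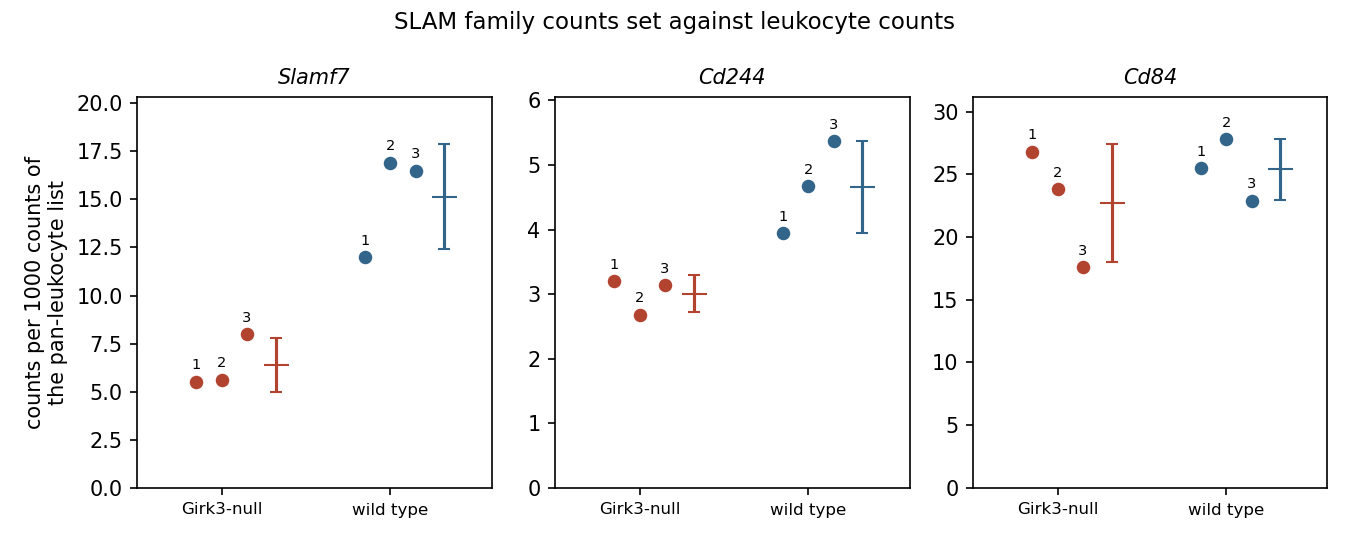
Counts of Slamf7, Cd244 and Cd84 per 1000 counts of the 14-gene pan-leukocyte list in each library (points, numbered by replicate), with the mean and SD of each genotype (bars, n = 3). Slamf7 spans 5.53 to 8 in Girk3-null libraries and 12 to 16.9 in wild type libraries and Cd244 is also apart, while Cd84 overlaps.

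Of the leukocytes known to carry SLAM receptors, the marker lists gave the following, with 0 genes past an adjusted p of 0.05 by edgeR in each list. In the lists that follow, the genes named first are the highest in RPKM, which need not be the highest in CPM. Over all tested genes 48.2% had a log2 fold change below 0, and 10.2% had groups apart with Girk3-null lower. The 16 macrophage and monocyte genes, among them Lyz2, Cd14 and Cd68, summed to 268 to 343 CPM in Girk3-null libraries and 266 to 327 CPM in wild type libraries. Of 15 tested 12 were lower, with a median log2 fold change of -0.39. Lyz2 (0.02), Cd14 (0.03) and Cd68 (0.66) were on the higher side, and the complement genes C1qa, C1qb and C1qc had log2 fold changes of -0.36, -1.02 and -1.03. The 12 neutrophil genes, among them S100a9, S100a8 and Ngp, summed to 309, 638 and 98.7 CPM in Girk3-null replicates 1 to 3, and 689, 426 and 220 CPM in wild type replicates 1 to 3. Of 12 tested, 8 were lower and 4 higher, with a median log2 fold change of -0.23. Their sum was lowest in replicate 3 of either genotype, as were Cd48, Cd84, Ly9, Slamf1 and Slamf6, but not every gene followed the sum. The same held for the pan-leukocyte sum and for Ptprc. Ptprc was at 22.2, 26.1 and 11.6 CPM in Girk3-null replicates 1 to 3, and 37.1, 17.8 and 17.2 CPM in wild type replicates 1 to 3. Mast cell and basophil genes, among them Mcpt4, Cma1 and Tpsb2, summed to 0.996 to 4.29 CPM in Girk3-null libraries and 3.49 to 22.1 CPM in wild type libraries, and all 5 tested were lower with a median of -2.03. B and plasma cell genes, among them Cd79b and Cd79a, summed to 5.55 to 19.1 CPM in Girk3-null libraries and 6.10 to 17.1 CPM in wild type libraries. Of 12 tested, 4 were lower and 8 higher, with a median log2 fold change of 0.12. Dendritic cell genes, among them H2-Ab1, Cd74 and Zbtb46, summed to 88.9 to 140 CPM in Girk3-null libraries and 90.0 to 130 CPM in wild type libraries, with the dendritic cell gene Xcr1 at 0. Most of that sum was H2-Ab1 and Zbtb46, which averaged 74.1 and 30.4 CPM in Girk3-null libraries and 60.8 and 34.2 CPM in wild type libraries. Flt3, Itgax, Ciita and Siglech each averaged 0.685 CPM or less in either genotype. Of the 6 dendritic cell genes tested, 1 was lower and 5 higher, with a median log2 fold change of 0.33. Megakaryocyte and platelet genes, among them Pf4, Gp1bb and Itgb3, summed to 113 to 119 CPM in Girk3-null libraries and 119 to 128 CPM in wild type libraries. Of 7 tested, 2 were lower and 5 higher, with a median log2 fold change of 0.35.

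Lymphocytes that carry Slamf7, Slamf6 and Ly9 were scarce by their defining genes. Natural killer cell markers summed to 0.472 to 0.779 CPM in Girk3-null libraries and 0.171 to 0.762 CPM in wild type libraries, with Ncr1 and Gzma at 0 in all 6 libraries and none of the 9 passing the filter. Of the CD3 genes, whose products associate with the T cell receptor, Cd3d had 0 to 4 counts, Cd3g 0 to 2, and Cd3e 5 in Girk3-null replicate 3 and 0 elsewhere. The T cell list summed to 12.6 to 13.6 CPM in Girk3-null libraries and 19.7 to 24.9 CPM in wild type libraries, without overlap. Its highest mean was that of Icos, a costimulatory receptor, at 6.87 ± 1.06 CPM in Girk3-null libraries and 16.2 ± 4.07 CPM in wild type libraries. Icos made up much of the sum, and of the 4 tested genes of the list it alone had groups apart. Cd28 (3.87 ± 1.66 CPM in Girk3-null libraries and 3.29 ± 2.26 CPM in wild type libraries) and Lck (1.08 ± 0.427 CPM in Girk3-null libraries and 1.30 ± 0.616 CPM in wild type libraries) overlapped. Osteoclast genes, of the macrophage lineage and including Ctsk, Mmp9 and Acp5, summed to 310 to 349 CPM in Girk3-null libraries and 307 to 332 CPM in wild type libraries. Of 7 tested, 3 were lower and 4 higher, with a median log2 fold change of 0.04. Of other cells of the digest, endothelial genes, among them Cdh5, Eng and Pecam1, summed to 63.1 to 122 CPM in Girk3-null libraries and 145 to 224 CPM in wild type libraries, without overlap, with 9 of 10 lower and a median log2 fold change of -1.19. Skeletal muscle genes, among them Acta1, Mylpf and Tnnt3, summed to 10.3 to 27.2 CPM in Girk3-null libraries and 23.3 to 57.7 CPM in wild type libraries, with 7 of 8 lower. Erythroid genes, among them Hbb-bs, Hbb-bt and Hba-a1, summed to 55.9 to 159 CPM in Girk3-null libraries and 78.4 to 276 CPM in wild type libraries, with 8 of 8 tested lower. Chondrocyte genes went the other way, with 13 of 15 higher and a median log2 fold change of 0.56. The part of any of these cells in the SLAM values was not tested.

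Of the genes that act with SLAM receptors, 24 were listed and 20 tested. By edgeR 0 passed, 10 were lower and 10 higher, and the median log2 fold change was 0.00. The adaptor SAP (Sh2d1a) had 1 count in Girk3-null replicate 2 and 0 elsewhere. The EAT-2 gene Sh2d1b1 had 16, 20 and 29 counts in Girk3-null replicates 1 to 3, and 32, 35 and 30 counts in wild type replicates 1 to 3, with a log2 fold change of -0.37 (SE 0.46). Its copy Sh2d1b2 had 0 to 8 counts. The 3 highest partners were Inppl1, a lipid phosphatase (log2 fold change 0.15), Fyn, the kinase that SAP recruits (-0.39), and Csk, an inhibitor of such kinases (0.27). Fyn averaged 78.3 ± 12.4 CPM in Girk3-null libraries and 103 ± 7.93 CPM in wild type libraries (SD, n = 3 each; adjusted p = 0.292 in edgeR). Ceacam1, an adhesion receptor, averaged 7.37 ± 3.20 CPM in Girk3-null libraries and 12.3 ± 1.79 CPM in wild type libraries (log2 fold change -0.75, adjusted p = 0.338). Of the 20 tested partners, Fyn and Ceacam1 had an unadjusted p under 0.05 in edgeR, both lower, where 7.02% of all tested genes were lower. Cd2, a relative that also binds Cd48, had 0 to 6 counts.

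The profiles most like each member were looked for among the 12865 genes whose log2 CPM averaged 1 or more, as the smallest root mean square difference of centred log2 CPM over the 6 libraries. The closest genes differed from member to member. Cd84 was closest to Evi2b (0.0850) and 2010005H15Rik (0.105), and Slamf1 to Ifitm6 (0.283) and Cxcr2 (0.317), a neutrophil chemokine receptor. Slamf6 was closest to Dock2, a leukocyte regulator of Rac (0.263), and Lrrc17 (0.314), and Cd48 to Ly6a (0.175) and Slc9a9 (0.176). Slamf7 was closest to Fam83d (0.120) and Sgol1 (0.161), both known from dividing cells. Cd244 was closest to Gm7389 (0.0932) and Troap (0.107), a mitotic spindle protein gene. Ly9 was closest to Bmp4 (0.0280) and Fastkd2 (0.0396), Slamf8 to Epcam (0.292) and Gm1045 (0.340), and Slamf9 to Syn1 (0.161) and A530064D06Rik (0.165). Every set of 6 values has close neighbours among so many genes, and these names are a description.

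Between the first and the last member lie 40 other annotated genes, of which 17 were tested. Their log2 fold changes had a median of 0.15, with 7 below 0, and 0 passed. Of the 7 with an unadjusted p under 0.05, 5 were higher in Girk3-null (7.49% of all tested genes) and 2 lower (7.02%). The higher ones included Atp1a4 (3.39), which encodes a sodium pump subunit, Vsig8 (1.23), Pex19 (0.32) and Pea15a (0.30). The lower ones were Tagln2 (-0.52) and Cfap45 (-1.10), both in the stretch between Slamf9 and Slamf8. Atp1a4 had 299, 62 and 84 counts in Girk3-null replicates 1 to 3, and 16, 7 and 17 counts in wild type replicates 1 to 3. Within the left block, Tma7-ps (-0.21) and Gm10521 (0.07), the tested genes that lie among the receptors, had SEs of 0.28 and 0.53. Log2 fold changes of these other tested genes lay on both sides of 0. The 9 receptors were picked with earlier results of the genotype comparison known, so no contrast with their neighbours is drawn.

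**Figure D4:**
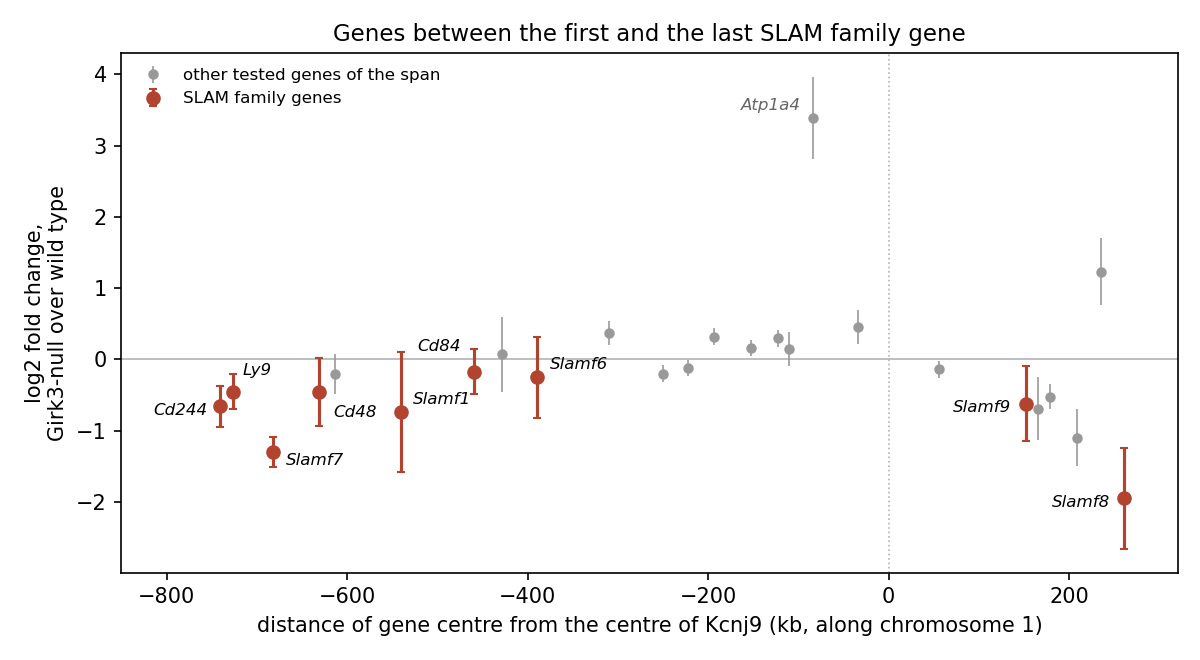
edgeR log2 fold change of Girk3-null over wild type (points) with 1 standard error on either side (bars) against the distance in kb from the centre of Kcnj9, for the 9 SLAM family genes and other tested genes between them (1 is not drawn). Slamf7, in the left block, and Slamf8, at the right end, are the lowest receptors at -1.30 and -1.95, and Atp1a4, close to Kcnj9, is highest at 3.39.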

How the data were processed

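Per the file headers, the deposited table gives a raw count and an RPKM value for each gene in each library. RPKM was made by the authors by scaling to depth and gene length, per the labels' protocols; it serves here for levels between genes. The submitters' processing notes name bcl2fastq 2.19.0, STAR 2.5.2b and mm10. Not given in the sources used here are the counting tool, annotation and strand setting. Groups follow the genotype label; replicates are numbered in deposit order and pair no samples. Whether replicates share a litter is not stated, so p-values measure the spread between these samples. Of 43346 genes, 17554 passed filterByExpr (minimum count 10, minimum total 15) and entered the quasi-likelihood test of edgeR 4.0.16 with TMM scaling (R 4.3.3), with Benjamini-Hochberg adjustment over all tested genes and a threshold of 0.05. The fit was also run on counts simulated from its own dispersions, with changes set only in genes averaging above 1 CPM. That run does not bear on members below this level. Alternatives used DESeq2 1.42.0, limma 3.58.1, other scaling, no filter, a title number covariate, RPKM with pseudocounts of 0.1 and 1, and libraries left out. Log2 CPM had a prior count of 2. Total counts were 34279516 to 60392837, so a count of 0 allows 0.0497 to 0.0875 CPM. Intervals and these limits hold for counting error alone: with no molecular identifiers, reads may repeat a molecule. Chi-square per degree of freedom between replicates was 26.3 to 138, well above sampling noise.

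Members, gene lists and tests were chosen with earlier results of these data known. Named were all members, partners with an unadjusted p under 0.05 or among the 3 highest in RPKM, up to 3 genes highest in RPKM per cell type list, the 2 profiles most like each member, and genes of the span with an unadjusted p under 0.05. C1qa, C1qb, C1qc, Lcp1, Xcr1, Flt3, Itgax, Ciita, Siglech, the CD3 genes, Ncr1, Gzma, the adaptors, Cd2, Tma7-ps and Gm10521 were named after their values were seen. Some genes that this rule names are not reported here. Of the list genes only Ahsp was not matched by symbol. Promoters are RefSeq's, GRCm38.p6.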

Additional observations from a re-analysis of the deposited data

How the results depend on the processing

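Over 14 alternatives, 7 members kept a negative log2 fold change and Slamf6 and Cd84 did not. Slamf6 was 0.04 with a title number covariate, 0.29 without wild type replicate 2 and 0.08 without Girk3-null replicate 3, and Cd84 was 0.01 without wild type replicate 1 and 0.11 without Girk3-null replicate 3. With a library left out Slamf6 ranged from -0.79 to 0.29 and Cd84 from -0.38 to 0.11. No setting but DESeq2 and edgeR without the count filter, at 1 member each (Slamf7), called a member, and 0 were called with any library left out. The cause was not tested. Genes called over the whole table numbered 1 in edgeR, 53 without the filter, 339 in DESeq2, and 0 with library size only, with limma-voom, on log2(RPKM + 0.1), on log2(RPKM + 1) and with the covariate. They numbered 0 to 74 with a library left out, 74 without wild type replicate 3. The median over members was -0.62, -0.80 to -0.34 with a library left out, -0.41 with the covariate, -0.46 on log2(RPKM + 0.1) and -0.13 on log2(RPKM + 1), a scale whose pseudocount understates low genes. SLAM counts per pan-leukocyte count differed by -0.49 in mean log2 ratio, and by -0.30 per Ptprc count. No paired analysis was possible because the groups share no replicate numbers in their titles. Counts under 30 per library for Slamf1, Slamf8 and Slamf9 limit what could be detected in them.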
